A study of Mus musculus with 6 samples.

Results

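E-cadherin (Cdh1), 4 catenins that can bind its cytoplasmic tail (Ctnna1, Ctnnb1, Ctnnd1 and Jup), the α subunit of its lymphocyte ligand integrin (Itgae), 3 transcriptional repressors of Cdh1 (Zeb1, Zeb2 and Snai1) and N-cadherin (Cdh2) were followed in leukaemic mouse pre-B cells. These 10 genes were taken by symbol from the 19938 genes that have a probe set with exactly 1 gene symbol on the array, and each of them had 1 such probe set. They were chosen with the difference of Cdh1 between the groups known, so their values are given as a description and carry no test.

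E-cadherin is a single-pass transmembrane protein whose extracellular cadherin repeats bind calcium and pair with E-cadherin on a neighbouring cell. Its cytoplasmic tail binds p120-catenin, which keeps it at the plasma membrane, and β-catenin or plakoglobin, which connect it through α-catenin to actin. β-catenin that is not at the membrane is degraded or, in Wnt signalling, enters the nucleus and acts with TCF and LEF factors. ZEB and SNAI proteins are zinc-finger factors best known for binding E-box sequences in the Cdh1 promoter in epithelial cells during epithelial to mesenchymal transition. In blood, E-cadherin is best known from erythroid precursors and from Langerhans cells, and ZEB2 and ZEB1 also act in normal lymphoid development.

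All arrays were from C57BL/6 pre-B cells transformed by BCR-ABL1, the constitutively active kinase made by the Philadelphia chromosome in acute lymphoblastic leukaemia (Ph+ ALL), and all cells carried floxed alleles of Inpp5d (Inpp5d fl/fl), the gene of the lipid phosphatase SHIP1. The group ERT (3 arrays) had been transduced with PMIP-ERT2, and the group CRE (3 arrays) with PMIP-CRE-ERT2, in which Cre recombinase is fused to a tamoxifen-responsive receptor domain. Cells of both groups had received 0.5 µM 4OH-Tamoxifen for 2 days and had been selected by puromycin resistance. The comparison addresses what differs when Inpp5d is to be deleted in these cells. No arm with Cre and without floxed alleles was analysed here, so Cre activity and loss of Inpp5d cannot be told apart. The labels do not say whether replicate arrays stand for separate cultures or mice, so the errors below measure the spread between these arrays, which may be technical.

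Values were deposited log2 values, and a difference is the mean of the arrays labelled CRE minus that of the ERT arrays. The fit over all genes (limma) was run on the 14953 genes with a mean log2 value of at least 7.35. Of these, 1140 (7.62%) passed an adjusted p of 0.05, 523 with a higher mean on arrays labelled CRE (3.5%) and 617 with a lower one (4.13%), and the median difference of all genes tested was 0.026. Pearson correlations between arrays over all genes lay between 0.988 and 0.997. The signal of Inpp5d itself was higher in the arrays labelled CRE (log2 13.37, 13.34 and 13.34) than in the ERT arrays (13.20, 13.21 and 13.17), against the direction a deletion would give, with an adjusted p of 0.0545 by limma; whether its probes lie in the floxed part is not known here. Each direction below is therefore that of the arrays labelled CRE. Differences also varied with brightness: the median was 0.12 among genes with means between 7.35 and 8.19, 0.064 up to 9.54, -0.056 up to 11.004 and -0.022 above that. When each array was centred on its own median, the median of all genes moved from 0.026 to -0.077, the share of calls that were higher fell from 45.9% to 7.38%, and small differences below are to be read beside that shift. In RNA from whole cultures, fewer cells of a type and less RNA per cell cannot be told apart.

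Cdh1 was the 1 gene of the 10 past the threshold of the fit as lower in the arrays labelled CRE (Entrez 12550, probe set 10575052). Its log2 value was 10.30, 10.29 and 10.25 on the ERT arrays and 8.26, 8.29 and 8.28 on those labelled CRE. The groups did not overlap: 1.96 log2 units lay between the lowest ERT array and the highest array labelled CRE. The means were 8.28 ± 0.015 (SD, n = 3) and 10.28 ± 0.026, a difference of -2.0 ± 0.042 (SE; 95% interval -2.10 to -1.90), or 4.00-fold. On the arrays labelled CRE, Cdh1 lay near the array medians over all probe sets (8.24 to 8.37). Whether that signal was above background was not tested. No other gene tested had a difference as low. With another normalization, filter or variance model, or with any 1 array left out, the Cdh1 difference stayed between -2.10 and -1.99.

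**Figure D1:**
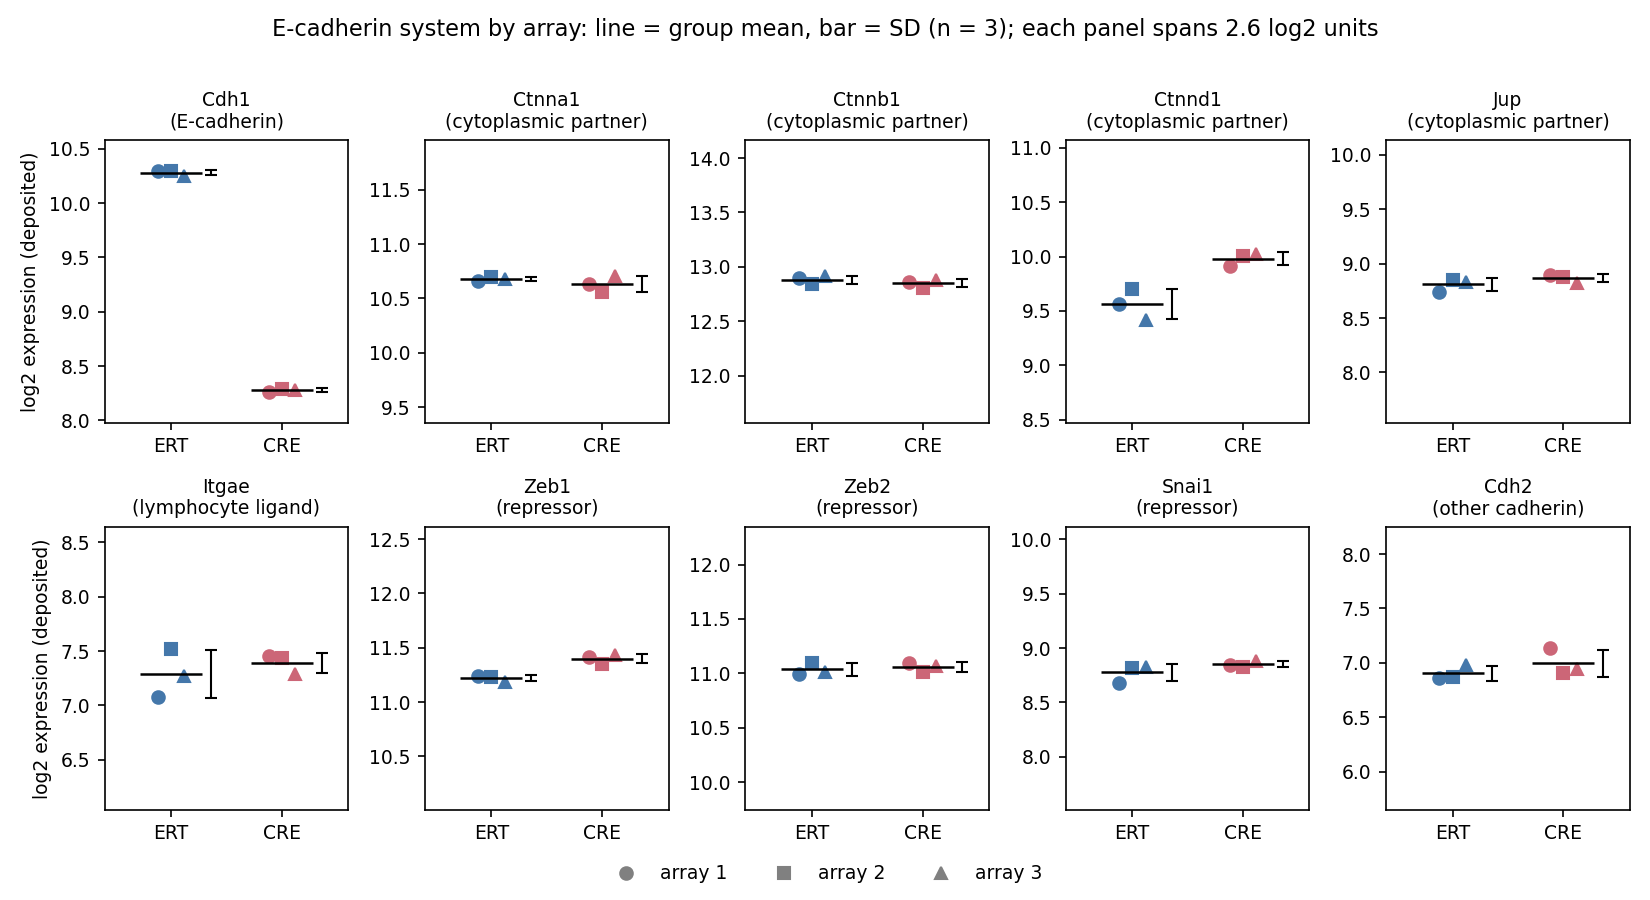
Deposited log2 signal of each of the 10 genes on each of the 6 arrays, in panels of equal span, with a point for each array (colour for the group, shape for the array number), a line at each group mean and a bar of its SD (n = 3). Cdh1 lies near 10.28 on the ERT arrays and near 8.28 on the arrays labelled CRE, while the groups of Ctnnb1, Ctnna1, Jup, Zeb2, Snai1, Itgae and Cdh2 overlap.

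The catenins that link E-cadherin to actin lay at similar levels in both groups. Ctnna1 encodes αE-catenin, which binds β-catenin and actin filaments. It measured 10.66, 10.70 and 10.68 on the ERT arrays and 10.64, 10.56 and 10.71 on the arrays labelled CRE, and the groups overlapped. Its difference was -0.046 ± 0.050 (SE; 95% interval -0.16 to 0.069). The array labelled CRE 2 was the low one, and the spread in that group (SD 0.072) was wider than in the ERT arrays (SD 0.016).

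Ctnnb1 encodes β-catenin, which serves both at the junction and in Wnt signalling. Its signal was 12.89, 12.84 and 12.91 on the ERT arrays and 12.86, 12.81 and 12.88 on the arrays labelled CRE, again with overlap. The difference was -0.031 ± 0.046 (SE; 95% interval -0.14 to 0.074). These intervals leave out a fall of the size seen for Cdh1 in either gene, and they do not show that the levels were equal.

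Jup encodes plakoglobin (γ-catenin), which can take the place of β-catenin at the cadherin tail and also sits in desmosomes. It read 8.74, 8.85 and 8.84 on the ERT arrays and 8.89, 8.88 and 8.83 on the arrays labelled CRE, so that the groups overlapped. Its difference of 0.058 ± 0.049 (SE; 95% interval -0.053 to 0.17) turned to -0.044 when arrays were centred on their medians and to -0.0068 when quantile normalization was repeated.

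Ctnnd1 stood apart from the other catenins. It encodes p120-catenin, which binds the membrane-near stretch of the cadherin tail and slows endocytosis of the cadherin. Its signal was 9.57, 9.71 and 9.42 on the ERT arrays and 9.92, 10.002 and 10.03 on the arrays labelled CRE. All 3 arrays labelled CRE were above all ERT arrays, with 0.21 between the nearest values. The means were 9.98 ± 0.058 (SD, n = 3) and 9.56 ± 0.14, a difference of 0.42 ± 0.073 (SE; 95% interval 0.25 to 0.59), or 1.34-fold. Across the alternatives the difference lay between 0.32 (arrays centred) and 0.49 (without ERT 2), always in that direction. It was past the threshold of the fit with all arrays, and no longer past it without ERT 1 (0.42) or without CRE 1 (0.45).

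The 250 bases before each of the 2 start sites that RefSeq lists for Ctnnd1 are shown because this is the catenin whose signal differed. Both lie on the minus strand of GRCm38.p6, the first at chr2:84658978-84659227 and the second at chr2:84650741-84650990, and are printed 5′ to 3′ along the gene. Capitals mark CCAAT boxes (CCAAT or its reverse complement ATTGG), a motif known as the site of the factor NF-Y.
Ctnnd1 upstream start: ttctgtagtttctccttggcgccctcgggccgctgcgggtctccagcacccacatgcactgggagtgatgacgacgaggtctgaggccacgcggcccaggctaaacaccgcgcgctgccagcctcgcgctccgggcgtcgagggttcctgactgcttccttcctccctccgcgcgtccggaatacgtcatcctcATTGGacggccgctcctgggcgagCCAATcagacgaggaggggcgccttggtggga
Ctnnd1 downstream start: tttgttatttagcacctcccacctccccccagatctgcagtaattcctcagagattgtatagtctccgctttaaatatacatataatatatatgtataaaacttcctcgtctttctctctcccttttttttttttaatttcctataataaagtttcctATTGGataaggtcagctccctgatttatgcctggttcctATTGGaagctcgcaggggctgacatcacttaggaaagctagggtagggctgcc
The first stretch holds CCAAT boxes whose first bases lie 56 and 32 bases before the start, and the second holds them at 92 and 53 bases. The motif occurs in 37.4% of 32851 promoter windows of 300 bases (250 before to 50 after a start, 27025 genes), so a match is common, and it is no evidence of a bound factor. The array does not show which start was used.

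Itgae encodes the αE integrin subunit (CD103), which pairs with β7 and binds E-cadherin on epithelial cells. Its signal was near the low end of the array, with 7.08, 7.52 and 7.27 on the ERT arrays and 7.45, 7.43 and 7.29 on the arrays labelled CRE. The groups overlapped, and the difference without a filter on dim genes was 0.099 ± 0.11 (SE; 95% interval -0.15 to 0.34). Its mean of 7.34 fell just below the filter, so it was not among the genes tested. Itgb7, which encodes the β7 partner and is not one of the 10 genes, read 8.36, 8.25 and 8.30 on the ERT arrays and 8.18, 8.46 and 8.33 on the arrays labelled CRE, also with overlap (0.019, adjusted p = 0.864 by limma).

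All 3 repressors had positive differences with overlapping 95% intervals, that of Zeb2 and of Snai1 turning negative with arrays centred on their medians, and none passed the threshold of the fit. Zeb1, a zinc-finger E-box repressor that also acts in lymphocytes, measured 11.24, 11.24 and 11.19 on the ERT arrays and 11.41, 11.35 and 11.44 on the arrays labelled CRE. The groups did not overlap, with a gap of 0.11. Its difference was 0.18 ± 0.045 (SE; 95% interval 0.075 to 0.28), or 1.13-fold. The difference was 0.077 with arrays centred on their medians and 0.21 after cyclic loess. As a description, it passed the threshold with array weights, with a trended and robust variance and with a filter at the 50th percentile. The same held with repeated quantile normalization and with loess. It did not pass with centred arrays, with the mean of probe sets, with no filter or with the replicate number as a block. Nor did it pass with any 1 array left out.

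Zeb2, the related repressor with roles in haematopoietic cells, read 10.996, 11.10 and 11.01 on the ERT arrays and 11.10, 11.01 and 11.06 on the arrays labelled CRE. The groups overlapped over their whole ranges. Its difference of 0.021 ± 0.049 (SE; 95% interval -0.092 to 0.13) turned to -0.081 with arrays centred on their medians.

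Snai1 encodes the repressor SNAIL. Its values of 8.68, 8.82 and 8.83 on the ERT arrays and 8.84, 8.83 and 8.88 on the arrays labelled CRE overlapped, with ERT 1 the low array. The difference was 0.075 ± 0.053 (SE; 95% interval -0.047 to 0.20), and -0.028 with arrays centred on their medians. The 250 bases before its start (chr2:167537945-167538194, plus strand, GRCm38.p6, from RefSeq) are shown for the E-box, the motif by which these repressors are known, in capitals.
Snai1: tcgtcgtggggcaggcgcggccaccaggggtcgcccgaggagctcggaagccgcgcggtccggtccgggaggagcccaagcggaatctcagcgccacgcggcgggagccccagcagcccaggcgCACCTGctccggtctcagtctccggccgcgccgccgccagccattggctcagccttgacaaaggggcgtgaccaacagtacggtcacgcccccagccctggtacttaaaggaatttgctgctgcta
The E-box (CACCTG, whose reverse complement is CAGGTG) begins 126 bases before the start. RefSeq windows were matched for 5 of the 10 genes (Ctnnb1, Ctnnd1, Jup, Zeb2 and Snai1, 10 windows in all), and this was the 1 window among them with that E-box, against 20.2% of all windows; no E-box match says only that these letters are not in that window. No window of Cdh1, Ctnna1, Itgae, Zeb1 or Cdh2 was among those searched. Their absence comes from the selection of windows and not from a search of their sequences. For the 10 genes the selection left out windows on 1 chromosome, a step not applied to the share over all windows. The count of windows with the E-box therefore says nothing of these genes, which include Cdh1 itself and the repressor Zeb1.

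Zeb1 and Zeb2 mRNAs are known targets of the miR-200 family, whose genes ZEB factors repress in turn. The mature sequences from RefSeq (GRCm38.p6) are given because the array carries probe sets named for the genes of 4 of them, with the seed (bases 2 to 8 from the 5′ end) in capitals.
mmu-miR-141-3p: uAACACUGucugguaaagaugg
mmu-miR-200a-3p: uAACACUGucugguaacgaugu
mmu-miR-200b-3p: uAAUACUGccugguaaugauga
mmu-miR-200c-3p: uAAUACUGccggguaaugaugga
mmu-miR-429-3p: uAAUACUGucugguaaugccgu
They fall into 2 seed groups, 3 miRNAs with AAUACUG and 2 with AACACUG, which differ by U4C. On the array, the probe set of Mir200c read 7.03, 7.20 and 7.29 on the ERT arrays and 7.71, 7.60 and 7.32 on the arrays labelled CRE. Its groups did not overlap, but CRE 3 lay only just above the highest ERT array, and the difference of 0.37 ± 0.11 (SE) had an adjusted p of 0.0641 by limma. Mir200a read 7.87, 7.83 and 7.95 against 8.09, 8.03 and 7.81, with overlap (0.089, adjusted p = 0.414 by limma). Mir200b (6.34 to 6.56 on the ERT arrays, 6.51 to 6.61 on those labelled CRE) and Mir141 (5.72 to 5.89 and 5.97 to 6.16) were below the filter. Probe sets of total RNA do not measure the mature miRNAs.

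Cdh2 encodes N-cadherin, the classical cadherin that replaces E-cadherin in many mesenchymal cells. It was dim on all arrays, at 6.86, 6.87 and 6.98 in ERT and 7.13, 6.91 and 6.94 in the arrays labelled CRE, and was below the filter. The groups overlapped, and the difference was 0.089 ± 0.072 (SE; 95% interval -0.076 to 0.25).

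**Figure D2:**
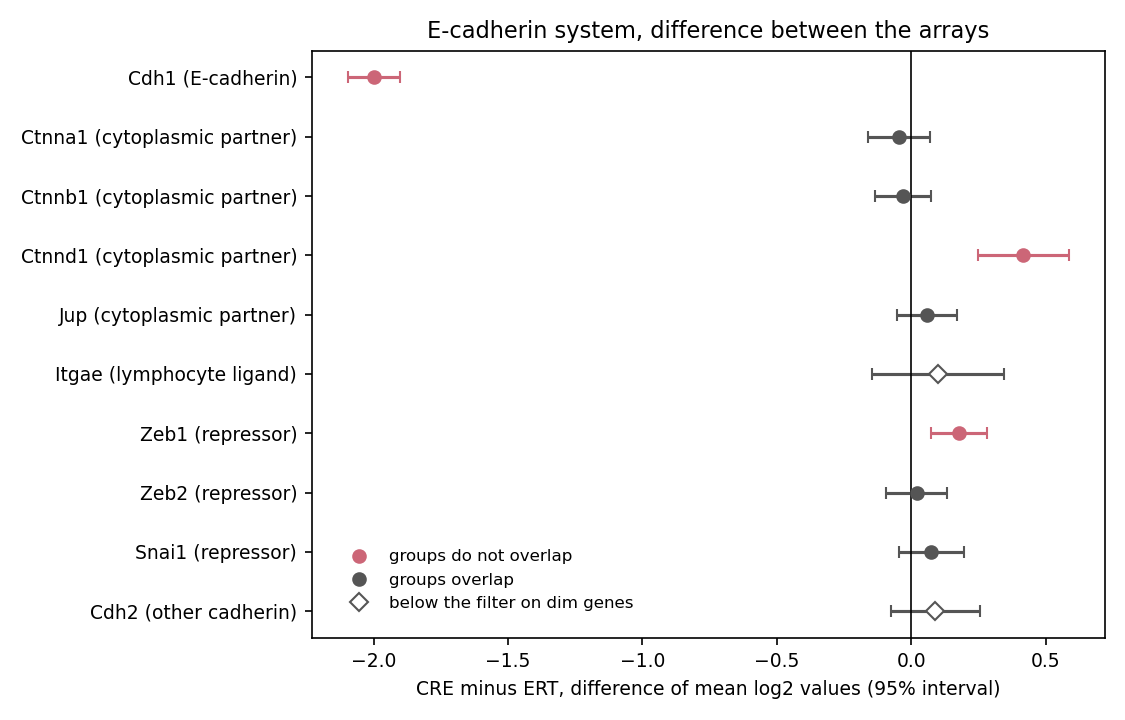
Difference in mean log2 signal (arrays labelled CRE minus ERT) of each gene, with its 95% interval, filled for genes tested and open for those below the filter, and coloured where the groups do not overlap. The interval of Cdh1 lies around -2.0 and that of Ctnnd1 around 0.42, that of Zeb1 also lies above 0, and the intervals of the other genes include 0.

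Of the 8 genes that passed the filter (all but Itgae and Cdh2), 2 were past the threshold, Cdh1 lower and Ctnnd1 higher, beside 7.62% of all genes. The values of 3 of the 10 genes (Cdh1, Ctnnd1 and Zeb1) did not overlap between the groups, beside 38.5% of all genes tested. Because the genes were chosen with this contrast known, nothing is read from these counts. The median difference of the 8 was 0.039, beside 0.026 for all genes. For the 7 other than Cdh1, 5 differences were positive and 2 negative, and under the settings tried the sign of Jup, Zeb2 and Snai1 turned while those of Ctnna1, Ctnnb1, Ctnnd1 and Zeb1 kept theirs.

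**Figure D3:**
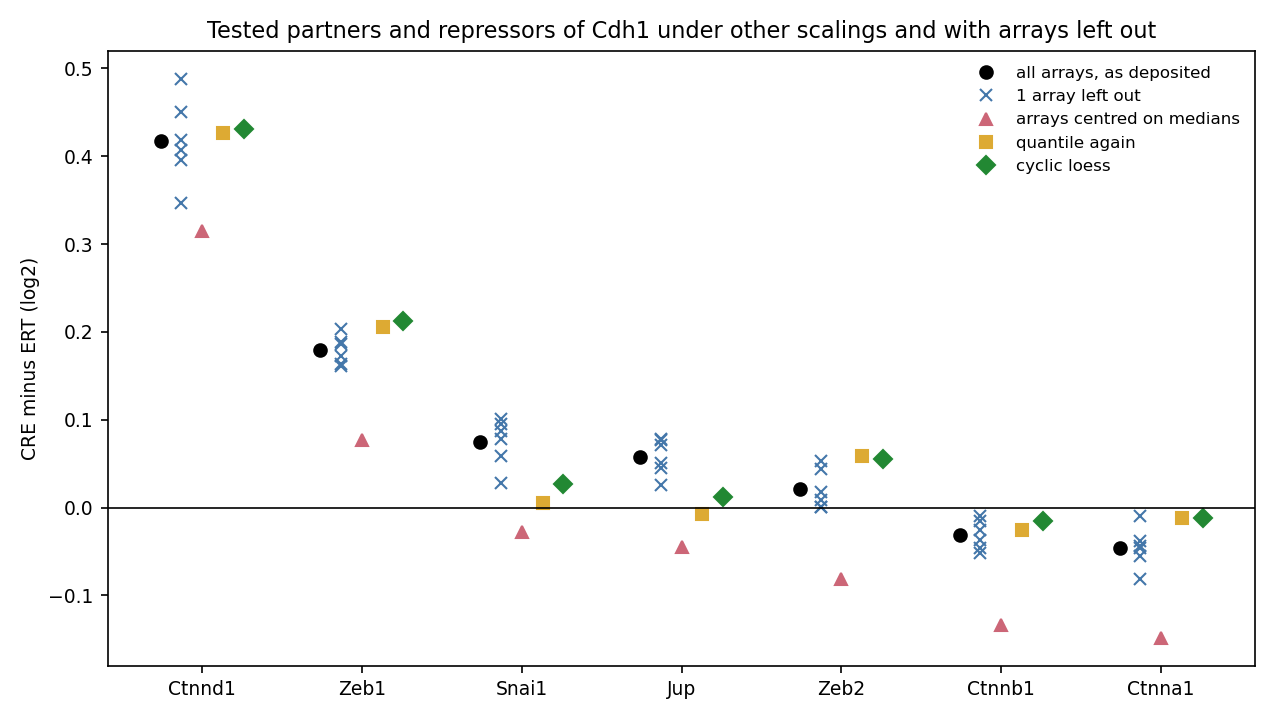
Difference in mean log2 signal (arrays labelled CRE minus ERT) of the 7 tested genes other than Cdh1, as deposited, with each of the 6 arrays left out in turn, and under 3 other scalings. Ctnnd1 lies between 0.32 and 0.49, while Jup, Zeb2 and Snai1 fall below 0 when arrays are centred on their medians.

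Across the 6 arrays the Pearson correlation with Cdh1 was 0.47 for Ctnna1, 0.43 for Ctnnb1, -0.25 for Zeb2, -0.60 for Jup, -0.61 for Snai1, -0.92 for Ctnnd1 and -0.95 for Zeb1. These points share their arrays and fall into the 2 groups, so a high value mainly states that a gene separates the groups, and 806 of 14952 genes had a correlation above 0.9 and 745 one below -0.9. The 5 named genes with patterns most like Cdh1 were Hs3st1 (0.9994), which encodes a heparan sulfate sulfotransferase; Scd1 (0.9993), a fatty acid desaturase; Fads2 (0.9988), another desaturase; Rtn1 (0.9986), a reticulon of the endoplasmic reticulum; and Ccnd1 (0.9984), cyclin D1. Hs3st1 read 8.01, 7.98 and 7.996 on the ERT arrays and 7.37, 7.40 and 7.39 on those labelled CRE. Their differences were smaller in size than that of Cdh1: -0.61 for Hs3st1, -1.34 for Scd1, -0.77 for Fads2, -1.73 for Rtn1 and -0.85 for Ccnd1.

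**Figure D4:**
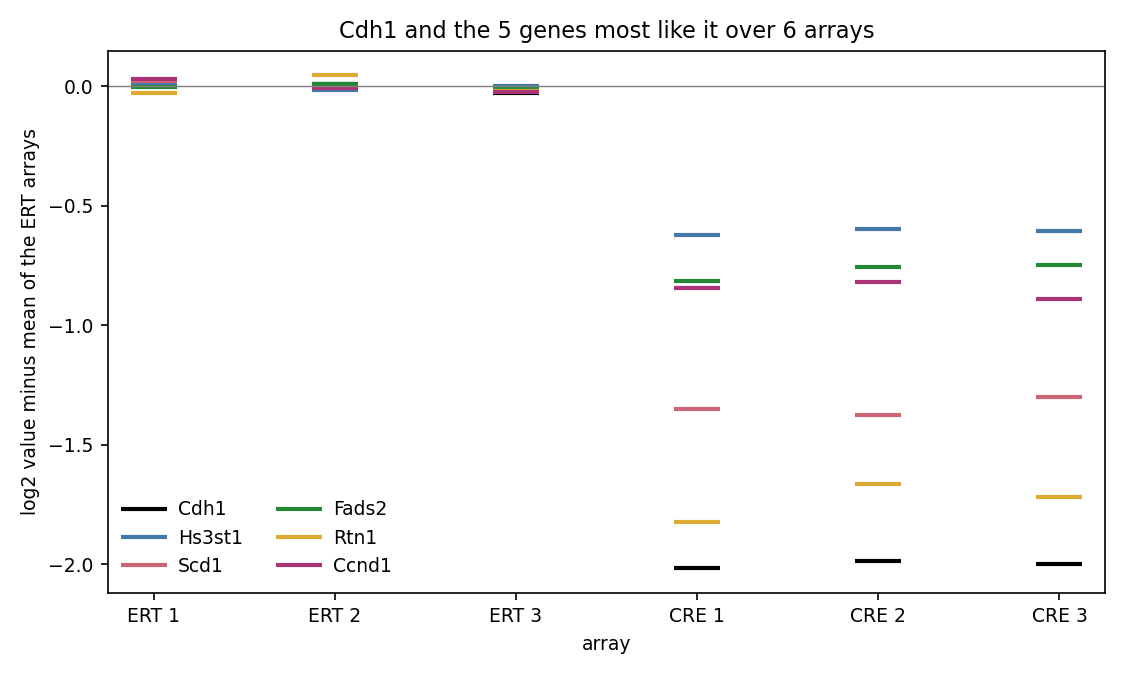
Log2 signal minus the mean of the ERT arrays for Cdh1 and the 5 genes most like it by Pearson correlation, with a dash for each gene on each of the 6 arrays. The ERT arrays lie near 0, and the 3 arrays labelled CRE lie lower in each gene, by about 2.0 for Cdh1 and least for Hs3st1 (mean difference -0.61).

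Other genes of the same pathways, and markers of cell types, were taken from 17 lists chosen by function. Without the 10 genes, 331 genes of the pathway and marker lists together were tested. Of these, 25 passed the threshold as higher and 15 as lower in the arrays labelled CRE (12.1%, beside 7.62% of all genes). Their median difference was 0.071. Of these 40 calls, 8 remained with each array left out in turn: those of Actn1, Ccnd1, Cd2, Cd22, Fn1, Jun, Lyz2 and Tcf7l1. Cd2, Cd22, Fn1 and Lyz2 came from the marker lists. The other 32 calls were lost without ERT 1, and also without CRE 1. Adjusted p-values below are from limma over all genes tested, and errors of differences are SE.

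Among 33 other cadherins and protocadherins tested, 4 were higher, none was lower and 29 did not pass, with a median difference of 0.14 (0.033 with arrays centred on their medians). Pcdh9, a protocadherin, read 11.98, 12.01 and 12.005 on the ERT arrays and 12.47, 12.33 and 12.22 on the arrays labelled CRE, a rise of 0.34 ± 0.064 (adjusted p = 0.0246). Fat4 (0.32, adjusted p = 0.0236) and Fat1 (0.28, adjusted p = 0.0343) encode giant cadherins, and with Cdh18 (0.30, adjusted p = 0.0329) they had means below 8 on the log2 scale in both groups, where the median of all genes was also above 0. With centred arrays 2 of the list were called higher and 1 lower. Cdh17 encodes LI-cadherin, known from liver, intestine and early B cells. It read 12.74, 12.90 and 12.75 against 12.68, 12.62 and 12.65. Its difference of -0.15 ± 0.055 did not pass (adjusted p = 0.115), although the groups did not overlap.

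Among 33 catenin relatives and adherens junction proteins, 2 were higher, 1 was lower and 30 did not pass (median 0.037). Ctnnd2 encodes δ-catenin, a relative of p120-catenin. It fell from 9.06, 9.17 and 8.88 on the ERT arrays to 8.51, 8.57 and 8.46 on the arrays labelled CRE (-0.53 ± 0.075, adjusted p = 0.00944), the opposite direction to Ctnnd1, and this call was lost without ERT 1 and without CRE 1. Actn1, which encodes the actin crosslinker α-actinin 1, rose from 10.68, 10.81 and 10.74 to 11.17, 11.14 and 11.28 (0.45 ± 0.056, adjusted p = 0.00588). Magi1, a junctional scaffold, rose by 0.29 ± 0.041 (adjusted p = 0.00926). None of 7 desmosome genes tested passed with limma, and 5 of them (Dsp, Pkp1, Pkp2, Perp and Ppl, all higher) had an unadjusted p under 0.05. With array weights 3 were called, beside 3993 of the 14953 genes. The share of all genes with an unadjusted p under 0.05 is not given here, so nothing is read from these counts.

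Among 28 genes of E-cadherin turnover and cleavage, 2 were higher and 26 did not pass (median -0.0054). Ptprj, a receptor tyrosine phosphatase that acts on junction proteins, rose by 0.31 ± 0.047 (adjusted p = 0.0129), and Exoc4, a subunit of the exocyst, by 0.28 ± 0.050 (adjusted p = 0.0223). The protease gene Adam10, whose product sheds the E-cadherin ectodomain, had means of 12.08 and 12.07 in the ERT arrays and in those labelled CRE (adjusted p = 0.906); like Axin2 below, it was chosen for its role after its values were seen.

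Among 27 further E-box repressors and corepressors, 2 were lower and 25 did not pass (median 0.029). Both are Polycomb genes: Eed, of the complex that methylates histone H3 on lysine 27, fell by 0.23 ± 0.052 on the log2 scale (adjusted p = 0.0411), and Bmi1 fell by 0.30 ± 0.070 (adjusted p = 0.0424). The methyltransferase of the same complex as EED, Ezh2, did not pass (0.071, adjusted p = 0.295). None of 20 genes listed as activators of Cdh1 or epithelial regulators passed with limma. An unadjusted p under 0.05 was found for 4 (Grhl3, Foxa1, Runx1 and Mir200c, all higher), and 4 were called with array weights. Nothing is read from these counts either, for the reason given for the desmosome genes. Runx1, a haematopoietic factor also linked to Cdh1 transcription, was 0.19 higher with an adjusted p of 0.0512.

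Around β-catenin, changes ran in both directions. Among 36 genes of its destruction complex and of Wnt receptors, 3 were higher, 1 was lower and 32 did not pass (median 0.034). Apc, the scaffold of the destruction complex, rose by 0.27 ± 0.058 (adjusted p = 0.0348), and the receptor gene Fzd7 fell by 0.40 ± 0.078 (adjusted p = 0.0273). The other calls were rises of Dvl3 (0.20, adjusted p = 0.0350), a Dishevelled relay of Wnt receptors, and Sfrp1 (0.29, adjusted p = 0.0347), a secreted Wnt antagonist. With centred arrays none of this list was called higher and 3 were called lower. Among 22 nuclear partners, 1 was higher, 3 were lower and 18 did not pass (median 0.035). Tcf7l1, which encodes the TCF factor known mainly as a repressor, fell from 9.54, 9.54 and 9.60 to 9.16, 9.17 and 9.25 (-0.37 ± 0.047, adjusted p = 0.0065). Lef1, the TCF-family gene typical of pre-B cells, had means of 12.42 and 12.49 and did not pass (adjusted p = 0.271). The ATPase gene Ruvbl1, whose product binds β-catenin, fell by 0.30 ± 0.055 (adjusted p = 0.0239), and its partner Ruvbl2 fell by 0.27 (adjusted p = 0.0444). The corepressor gene Tle3 rose by 0.19 (adjusted p = 0.0375).

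Among 27 genes known as β-catenin targets, 3 were higher (Jun, Id2 and Plaur), 3 were lower (Ccnd1, Myc and Birc5) and 21 did not pass, with a median of 0.056. Ccnd1 fell from 10.86, 10.82 and 10.81 to 9.99, 10.01 and 9.94 (-0.85 ± 0.044, adjusted p = 1.09e-04). Jun, which encodes an AP-1 subunit, rose by 0.38 ± 0.049 (adjusted p = 0.00656), and Myc fell by 0.22 ± 0.042 on the log2 scale (adjusted p = 0.0259). Axin2, a feedback gene of Wnt signalling, did not pass (-0.068, adjusted p = 0.458). Most of these targets answer to other pathways as well.

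Among 14 genes of lymphocyte ligands of E-cadherin, their partners and the TGF-β pathway that induces Itgae, 1 was higher, 2 were lower and 11 did not pass (median 0.036). The receptor genes Tgfbr2 (0.22 ± 0.043, adjusted p = 0.0260) and Tgfbr1 (-0.18 ± 0.044, adjusted p = 0.0449) moved in opposite directions, and Smad3, a signal transducer of both, fell by 0.20 ± 0.050 on the log2 scale (adjusted p = 0.0459).

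**Figure D5:**
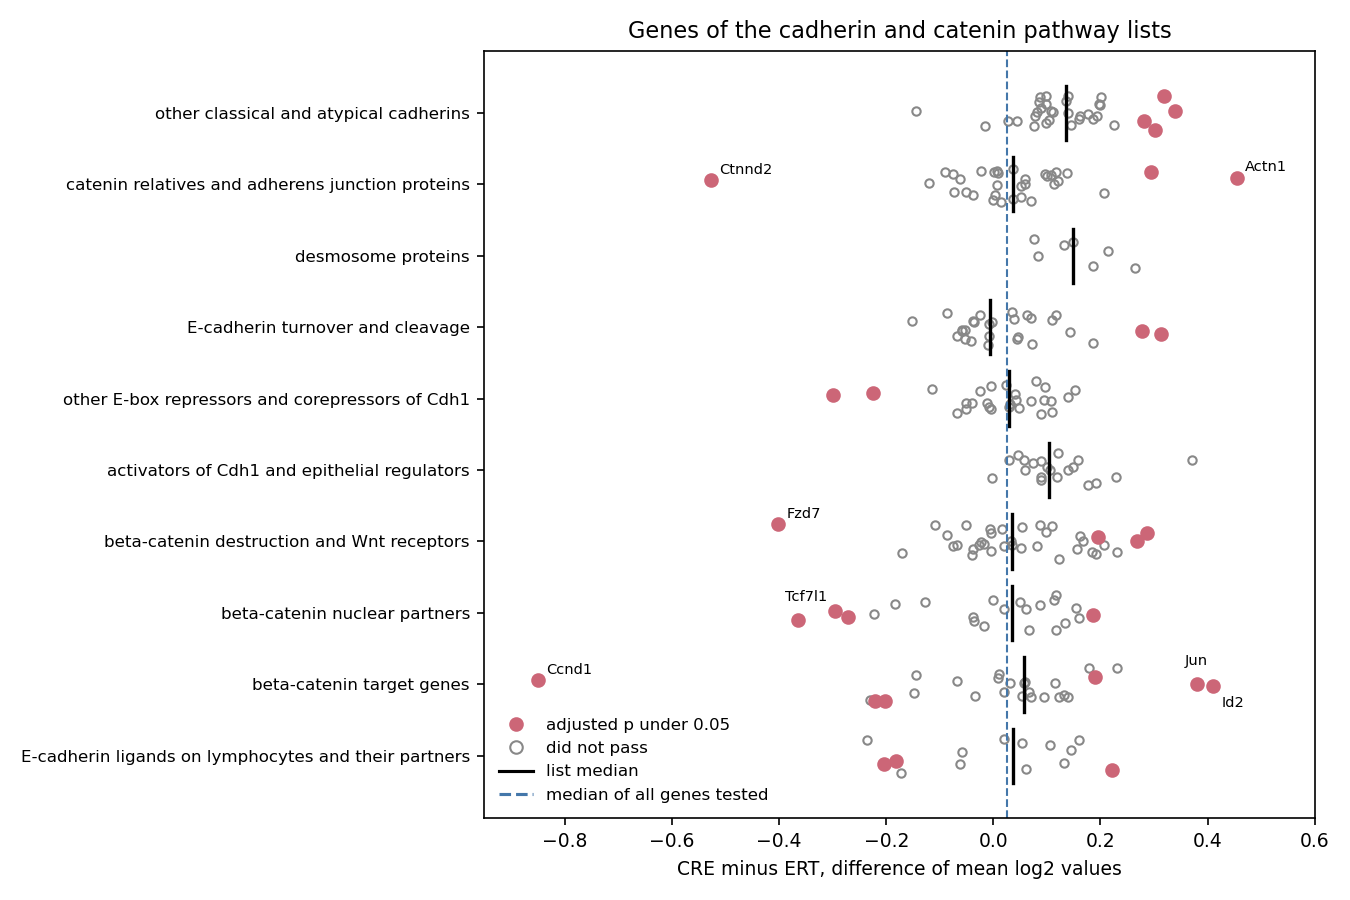
Difference in mean log2 signal of each tested gene in each of the 10 pathway lists, with genes past an adjusted p of 0.05 marked, a black line at each list's median and a dashed line at the median of all genes tested. The list medians lie between -0.0054 and 0.15, and genes past the threshold are found on both sides of 0 in several lists.

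Markers of cell types that are known to carry E-cadherin, or that a culture of pre-B cells could hold, gave the following values. Pre-B markers were bright in all arrays, with array means over 23 genes of 12.26 to 12.28 in ERT and 12.23 to 12.28 in the arrays labelled CRE; 1 was higher (Dntt, 0.33, adjusted p = 0.0176), 2 were lower (Cd22, -0.51, adjusted p = 0.00448, and Rag2, -0.50, adjusted p = 0.0249) and 20 did not pass. Of 18 epithelial markers tested, Rab25 was higher (0.24, adjusted p = 0.0438) and 17 did not pass, and array means over the 23 on the array were 7.87 to 7.91 in ERT and 7.91 to 8.01 in the arrays labelled CRE. None of 7 erythroid and megakaryocyte markers tested passed with limma, 1 (Alas2) had an unadjusted p under 0.05 and 1 was called with array weights. As for the desmosome genes, nothing is read from these counts. Array means over the 11 on the array were 7.89 to 7.94 and 7.90 to 8.07. Of 10 dendritic and Langerhans markers, Cd209a was higher (0.24, adjusted p = 0.0308) and 9 did not pass, with array means of 7.76 to 7.79 and 7.82 to 7.89. Of 17 mesenchymal and stromal markers, Fn1 (0.40, adjusted p = 0.00588) and Sparc (0.24, adjusted p = 0.0207) were higher and 15 did not pass, with array means of 8.02 to 8.07 and 8.12 to 8.24. Of 12 myeloid and mast cell markers, 3 were higher and 9 did not pass. Lyz2, the lysozyme gene of macrophages and neutrophils, was 0.79 higher (adjusted p = 0.00588). The myeloid factor genes Cebpa and Cebpe were 0.27 and 0.21 higher (adjusted p = 0.0237 and 0.0357). Markers that did not pass lay on both sides of 0: Kit (0.18, adjusted p = 0.0813), Cd68 (-0.11, adjusted p = 0.418) and Fcgr3 (-0.11, adjusted p = 0.430). Array means over 22 genes were 7.44 to 7.46 and 7.56 to 7.60. Of 8 genes listed as T and NK markers, Zap70 was higher (0.23, adjusted p = 0.0464), Cd2 was lower (-0.64, adjusted p = 0.00124) and 6 did not pass, with array means of 7.20 to 7.28 and 7.28 to 7.37. Which cells gave the Cd2 signal was not tested, so its fall is not read as fewer T or NK cells. Below the filter were 5 of 23 epithelial, 4 of 11 erythroid and megakaryocyte and 3 of 13 dendritic and Langerhans markers. So were 10 of 22 myeloid and mast cell, 9 of 17 T and NK and 4 of 21 mesenchymal and stromal markers. Of the defining markers, chosen after their values were seen, the epithelial gene Epcam read 8.59 to 8.64 on the ERT arrays and 8.49 to 8.62 on those labelled CRE, with overlap. Gata1, the erythroid regulator, read 7.70 to 7.75 and 7.56 to 7.87, also with overlap. Cd207, the Langerhans cell lectin gene, read 7.31 to 7.49 and 7.49 to 7.58, and did not pass (adjusted p = 0.120). Several of these lists are dim, and the median difference of all genes with means between 7.35 and 8.19 was also above 0 (0.12). With arrays centred on their medians, the calls of Rab25, Cd209a, Sparc, Cebpa, Cebpe and Zap70 were lost. Those of Fn1, Lyz2, Dntt, Cd22, Rag2 and Cd2 remained. The part of other cell types in the Cdh1 difference was not tested.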

How the data were processed

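RNA on 6 arrays (3 ERT, 3 labelled CRE) was compared, grouped by the transduction and title labels. The authors deposited log2 values for 35556 probe sets; the submitters' processing notes name RMA and Partek 6.5 but not how each was used. No array coordinates are given, since the genome build was not stated. Probe sets with 1 symbol (21789) were kept, and the one with the highest mean stood for each of 19938 genes. The 25% of genes with the lowest means were left out of the fit (log2 below 7.35). The fit used lmFit and eBayes of limma 3.58.1 under R 4.3.3 (4.31 prior degrees of freedom, two-sided, Benjamini-Hochberg adjustment over 14953 genes, threshold 0.05). On simulated data for this comparison (14953 genes) 85% of 100 genes with a shift of 0.5 were recovered, and 100% of 100 with a shift of 1, beside 9 false calls. Each gene was drawn independently from its own mean and residual SD, with no shift shared by the genes of an array. These figures hold for that setting, and the false calls on the real arrays were not measured. The precision is limited by the 3 arrays per group.

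The members and lists were chosen with earlier results of these data known. The rule for named genes took each member, Inpp5d, up to 6 called genes and the 3 brightest uncalled genes per list, and the 5 most like Cdh1. The text gives the called genes and only some of the uncalled ones; Adam10, Axin2, Epcam, Gata1, Cd207, Itgb7, the miR-200 genes and most genes named to account for a count of 0 lie outside the rule and were chosen after their values were seen. Some list genes have no probe set of 1 symbol and were not analysed here. Alternatives were other filters, normalizations, variance models, probe set rules and thresholds, the replicate block and each array left out. Promoter and miRNA sequences are from RefSeq (GRCm38.p6). Python 3.11.15, pandas 2.3.3 and matplotlib 3.10.9 were used for tables and figures.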

Additional observations from a re-analysis of the deposited data

How the results depend on the processing

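The Cdh1 difference was -2.10 with centred arrays and -2.04 after repeated quantile normalization, and kept its direction in every setting run. The count of genes called (1140) was 3993 with array weights, 3020 with centred arrays, 2147 with trended and robust variance, 437 with no filter, 143 at a threshold of 0.01, 146 over all probe sets, and 116 (without ERT 1) to 3042 (without CRE 3) with 1 array left out. The 2 members past the threshold became 1 at a threshold of 0.01, and 1 to 2 with 1 array left out, Ctnnd1 being the one lost. The 40 list genes became 84 with array weights, 20 with no filter, 10 at 0.01, and 8 to 64 with 1 array left out. Of all calls, 45.9% were higher in the main fit, 7.38% with centred arrays and 56.9% with array weights. Same-numbered arrays did not deviate together (correlations 0.069, -0.17 and -0.40), so the numbers are not taken as pairs; with the replicate block, 147 genes, 1 member and 9 list genes were called. No called gene that is named turned its direction. The cause of these shifts was not tested. The signals of Itgae and Cdh2 near the low end of the array limit what can be said of them.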
